A study of Homo sapiens with 12 samples.

Results

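The genes for the proteins of the cytosolic ribosome were examined in A549 cells, a human lung adenocarcinoma line. They were taken by symbol: RPL or RPS followed by a number and at most 1 letter A, X or L, together with RPLP0, RPLP1, RPLP2 and RPSA. The rule found 82 of the 19550 genes in the counts of exonic reads, 49 of the large and 33 of the small subunit. It used no measured value. The cells were transduced by lentivirus with a control hairpin (shControl) or with a hairpin that targets RNF113A (shRNF113A) and selected with puromycin at 1 µg/ml for 4 days, so all 4 groups carry an integrated vector. Cells of each kind were left untreated or treated with Cisplatin at 25 µg/ml for 20 h, as the sample labels give it, with 3 replicates per group and 12 libraries in all. The study's text gives Cisplatin in micromolar for other experiments on these cells, so the unit of the dose is uncertain. Nothing in the labels says whether replicates came from separate infections, so p-values measure the spread between these libraries. As in every bulk sample, fewer cells of a type and less RNA per cell cannot be told apart.

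A ribosome holds a single copy of most of these proteins, and their mRNAs are among the most abundant and most evenly expressed of a dividing cell. Many of them start with a C followed by an uninterrupted run of pyrimidines, the 5′ terminal oligopyrimidine (TOP) tract, through which their translation responds to growth signals. Their introns are short, and many of them carry small nucleolar RNAs (snoRNAs). Free RPL5 and RPL11 bind MDM2 and so link ribosome assembly to p53, and mutations in RPS19 and other members cause Diamond-Blackfan anemia. RNF113A is a subunit of the spliceosome, the machine that removes introns. Cisplatin crosslinks DNA.

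The start of a few members shows what the tract looks like. A tract of C and at least 5 further pyrimidines began within 12 bases of the annotated start in 62 of 79 RefSeq starts of 64 members (78.5%), and in 8384 of 35116 starts of all genes (23.9%). The lines below give 30 bases of the transcribed strand in RefSeq coordinates of GRCh38.p14, with the tract in capitals. RPLP1 and RPS27 begin with a tract at the annotated start, and RPL10A has one a few bases on. By this rule RPL3 and RPS27L have none in this window, though a shorter run of pyrimidines lies at the start of RPL3. Whether the tract goes with changes of expression was not tested. A match describes the letters only.
RPLP1, chr15:69452808-69452837, plus strand: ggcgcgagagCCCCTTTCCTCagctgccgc
RPS27, chr1:153990752-153990781, plus strand: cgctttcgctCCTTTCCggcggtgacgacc
RPL10A, chr6:35468394-35468423, plus strand: acatgctagtCTCTTTTCCggttagcgcgg
RPL3, chr22:39319604-39319633, minus strand: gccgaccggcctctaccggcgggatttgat
RPS27L, chr15:63157458-63157487, minus strand: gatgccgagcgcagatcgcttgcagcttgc

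The libraries held 33859097 to 56071514 read pairs, of which 26220526 to 45721152 were assigned to genes on the sense strand. RNF113A itself was at 20.3, 19.5 and 19.8 CPM (TMM-scaled reads on the sense strand, relative to the library's total) in untreated shControl and 15.3, 15.8 and 16.8 in untreated shRNF113A cells, a log2 change of −0.31 ± 0.09 (SE, adjusted p = 0.025). After Cisplatin it was at 31.5, 28.9 and 27.7 in shControl and 25.8, 24.3 and 29.9 in shRNF113A cells. These groups overlap, and the change of −0.14 did not pass (adjusted p = 0.23). The epithelial keratin KRT8 was at 1936 to 7450 CPM in every library, and PTPRC and PECAM1, markers of leukocytes and endothelium, did not pass the filter on low counts. Of 7 markers of A549 cells 6 fell with Cisplatin, and 4 fell upon depletion (log2 changes of −1.62 for AKR1C1, −1.56 for AKR1B10, −0.44 for CDH1 and −0.25 for NQO1). The 1 that rose upon depletion was EPCAM, at 3.66 to 18.4 CPM in the 6 shControl and 40.5 to 97.6 in the 6 shRNF113A libraries. Replicate 2 of shControl stood apart in both treatments, with COL1A1, a fibroblast collagen, at 34.9 and 14.05 CPM against 3.32 to 7.13 in the other 10 libraries. The part of these differences in the results was not tested, and counts without both libraries are given below.

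Most members were expressed at a high level. In RPKM, exonic reads relative to exon length and library total, the median member was at 439 and the median of 19548 genes at 2.31, and 41 of the 100 highest genes were members. Levels of 15 members were at least 1000 RPKM, 58 were between 100 and 1000, 5 were between 10 and 100, and 4 were under 10. The highest was RPL13A, a large-subunit protein, with 2309 ± 312 in untreated shControl, 2333 ± 110.5 after Cisplatin, 2460 ± 46.5 in untreated shRNF113A and 2680 ± 173 in Cisplatin-treated shRNF113A cells (SD, n = 3). It was followed by RPS16 at a mean of 2170 and RPLP1 at 2118 over the 12 libraries, and the 3 genes lie within each other's SD in untreated shControl cells. Among the lowest were RPL3L and RPL10L, paralogs known from muscle and testis, with means under 0.1.

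Cytosolic ribosomal protein genes together took 6.02%, 6.93% and 6.77% of exonic reads in untreated shControl and 7.0%, 6.81% and 6.77% in Cisplatin-treated shControl libraries. In shRNF113A cells the shares were 6.85%, 6.86% and 7.15% without and 7.78%, 7.57% and 8.66% with Cisplatin. The 3 libraries of Cisplatin-treated shRNF113A cells are the highest of the 12, and the other groups overlap. These 3 libraries also had the fewest pairs. Of their pairs 21.8% to 22.6% were not assigned to a gene on the sense strand, against 13.98% to 18.9% in the other 9. This share includes multimapping pairs.

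**Figure D1:**
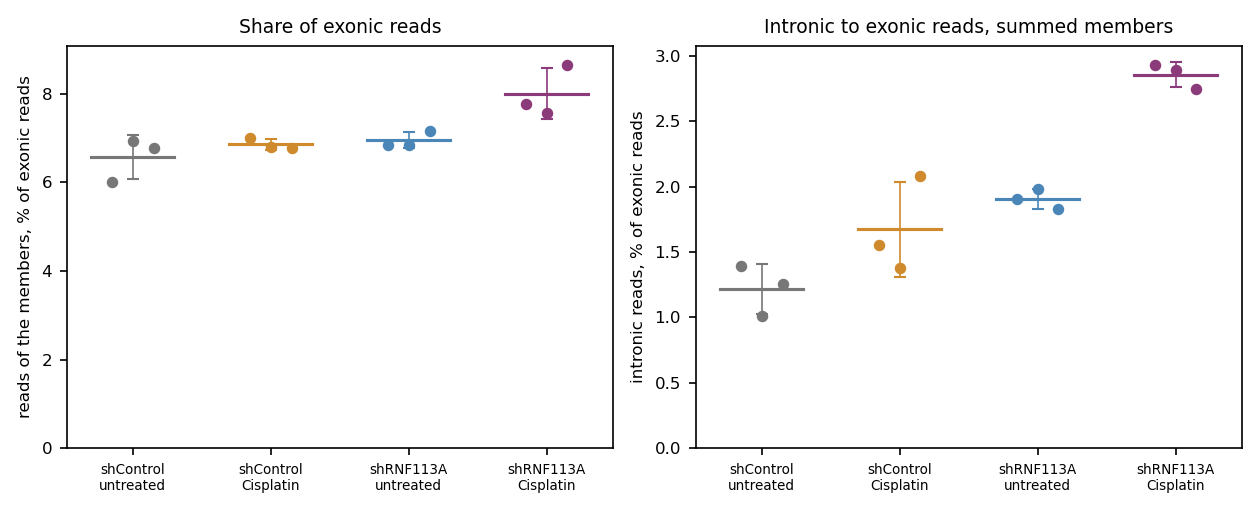
Reads of the cytosolic ribosomal protein genes by library, as percent of all exonic reads (left) and as intronic reads in percent of exonic reads, summed over the members without negative intronic counts (right). Points are libraries in the order of replicates 1 to 3, lines and bars are mean and SD of 3. The 3 Cisplatin-treated shRNF113A libraries are highest in both panels, at 7.57% to 8.66% and 2.75% to 2.93%.

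For expression, counts on the sense strand were tested, where 81 members are listed and 77 passed the filter among 15352 genes. RPL10L, RPL3L and RPL21 were among those that did not pass. The call rule was an adjusted p under 0.05 in edgeR's quasi-likelihood test with Benjamini-Hochberg adjustment over all genes tested.

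Cisplatin changed few members by expression. Over both cell types 8 members rose and 3 fell of 77, while 34.8% of all genes rose and 32.1% fell, and the median log2 change was 0.04 for members and 0.03 for all genes. Of all genes 21.5% changed at least 2-fold, and RPS27L was the only member to do so. With library size in place of TMM scaling 28 members rose and 3 fell, and with DESeq2 it was 8 and 8. Without replicate 2 of both shControl groups, 19 rose and 3 fell.

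RPS27L encodes a paralog of RPS27 and is known as a p53 target. Its level in untreated shControl cells was 215, 179 and 247 CPM, and 633, 528 and 646 after Cisplatin. In shRNF113A cells it was 153, 138 and 175 without and 444, 453 and 449 with Cisplatin. The untreated and treated groups are far apart in both cell types, and each shRNF113A group lies below its shControl group with no overlap. Cisplatin raised RPS27L by 1.51 ± 0.09 on the log2 scale (adjusted p = 5.1e-09), and RNF113A depletion lowered it by −0.44 ± 0.09 (adjusted p = 0.00098), with no difference between the Cisplatin effects passing the test (0.03 ± 0.17, adjusted p = 0.94). Its paralog RPS27 was at 696, 772 and 744 CPM in untreated and 777, 787 and 745 in treated shControl cells, which overlap. In shRNF113A cells RPS27 was at 735, 730 and 771 CPM without and 890, 858 and 1082 with Cisplatin, a change of 0.34 ± 0.09 (adjusted p = 0.0053).

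The largest fall was that of RPL3, a core protein near the peptidyl transferase center. It was at 1668, 1820 and 1755 CPM in untreated and 1206, 1092 and 1098 in treated shControl cells. In shRNF113A cells RPL3 was at 1906, 1770 and 2046 CPM without and 967, 989 and 1076 with Cisplatin. Treated and untreated libraries do not overlap in either cell type. The log2 change was −0.63 ± 0.08 in shControl (adjusted p = 3.7e-05) and −0.92 ± 0.08 in shRNF113A cells (adjusted p = 1.4e-06). The difference between both was −0.29 ± 0.11 (adjusted p = 0.16), and −0.35 ± 0.11 (adjusted p = 0.044) without replicate 2 of both shControl groups, where RPL3 was the single member called in the interaction.

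RPL10A and RPL22, also of the large subunit, fell less. RPL10A, the protein of the L1 stalk, was at 578, 576 and 647 CPM in untreated and 483, 374 and 473 in treated shControl cells. In shRNF113A cells it was at 649, 638 and 696 without and 470.1, 470.6 and 543 with Cisplatin. The groups do not overlap, and the change was −0.43 ± 0.07 (adjusted p = 0.00014). RPL22 changed by −0.25 ± 0.06 (adjusted p = 0.0013). RPS19 of the small subunit rose, from 1691, 1962 and 1985 CPM to 2271, 2438 and 2039 in shControl and from 1870, 1918 and 2017 to 2570, 2398 and 2997 in shRNF113A cells (0.36 ± 0.08, adjusted p = 0.00099). In shControl cells the lowest treated library lies just above the highest untreated one. Within shControl cells the change of RPS19 was 0.26 (adjusted p = 0.049), and it did not pass with HTSeq exon counts, without replicate 2 of both shControl groups or without most single libraries.

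**Figure D2:**
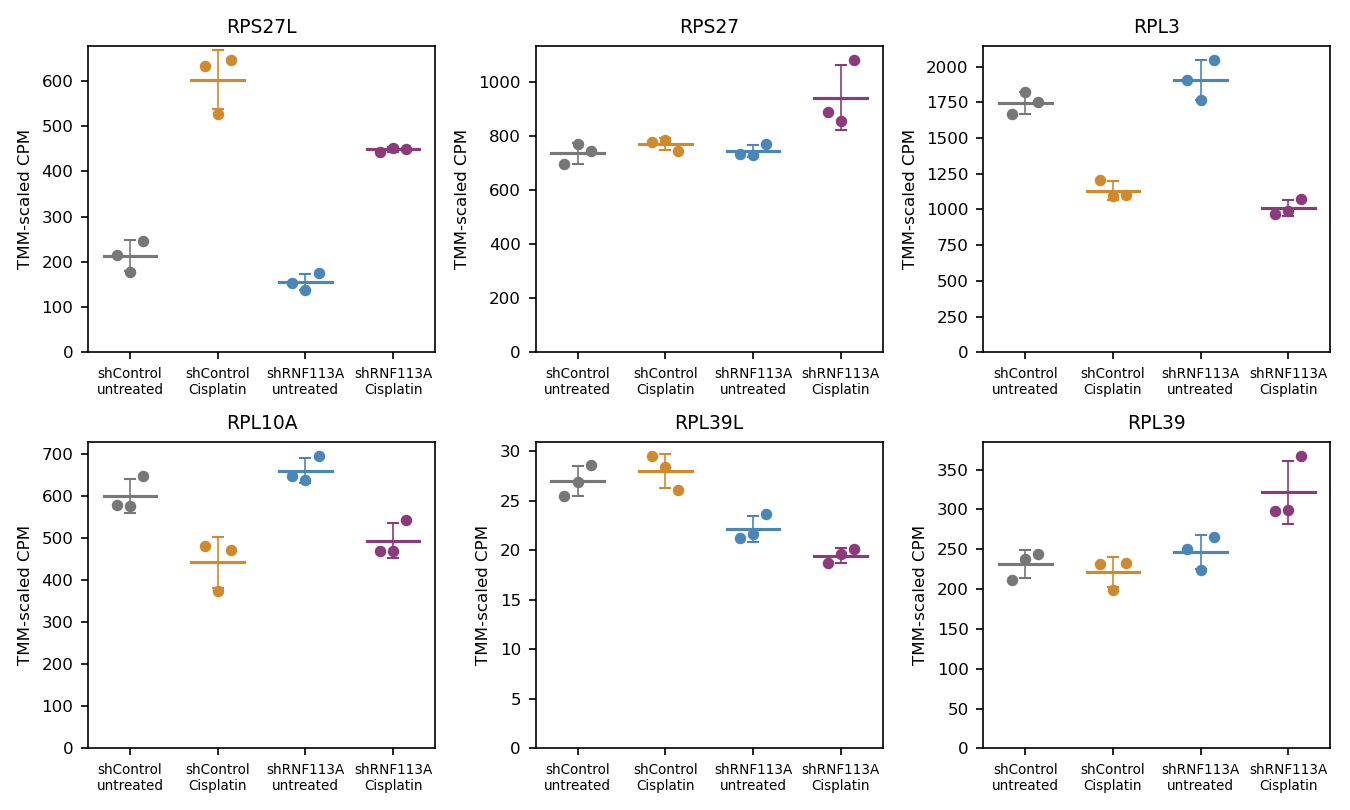
TMM-scaled CPM of 6 members in the 12 libraries, with mean and SD of 3 replicates. RPS27L rises and RPL3 and RPL10A fall with Cisplatin in both cell types, RPL39L is lower in shRNF113A cells, and RPS27 and RPL39 are highest in Cisplatin-treated shRNF113A libraries.

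Within shControl cells Cisplatin raised 3 members and lowered 3, against 28.0% and 27.0% of all genes, with medians of −0.05 for members and −0.01 for all genes. The members' median turned to 0.05 with library size scaling, where 7 rose and 2 fell. With DESeq2 3 rose and 6 fell. Untreated and treated shControl libraries of equal number deviated together, and with these pairs as a block in the 6 shControl libraries 4 rose and 4 fell, against 2 and 3 in the same libraries without a block. Within shRNF113A cells 20 members rose and 3 fell, against 32.4% and 27.8% of all genes, with medians of 0.12 and 0.06. Library size scaling gave 40 and 2, DESeq2 14 and 5, and counts of exonic reads gave 15 calls in all. Leaving out 1 library at a time moved the 23 calls, to 12 without replicate 1 of untreated or replicate 3 of treated shRNF113A cells and to 15 without replicate 2 of untreated or replicate 1 of treated shRNF113A cells.

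RNF113A depletion went with small rises in many members. Over both treatments 30 rose and 2 fell, where 23.5% of all genes rose and 24.0% fell. The median was 0.15 for members and −0.002 for all genes, and 70 of 77 members against 49.8% of all genes had a positive value. No member changed 2-fold, nor in the interaction, where 11.0% and 1.28% of all genes did. Without replicate 1 or replicate 3 of Cisplatin-treated shControl cells the count was 21 or 19.

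The rises were called in Cisplatin-treated cells, where 39 members rose and 2 fell, against 21.1% and 21.8% of all genes, and the medians were 0.23 and −0.01. The count of 41 fell to between 15 and 23 without any 1 of 5 libraries, namely each replicate of Cisplatin-treated shControl and replicates 1 and 3 of Cisplatin-treated shRNF113A. Without replicate 2 of both shControl groups 39 rose and 4 fell. In untreated cells 1 member rose and 2 fell, against 12.8% and 14.6% of all genes, with medians of 0.09 and 0.003. Library size scaling gave 5 and 2 there, DESeq2 2 and 2, exonic reads 0 and 2, and a block over replicate numbers 2 and 3. Without replicate 1 of untreated shRNF113A cells no member was called and without its replicate 2 there was 1, while 6 were called without replicate 2 of Cisplatin-treated shControl and 8 without replicate 2 of both shControl groups.

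The difference between these depletion effects did not pass for any member in edgeR or in DESeq2, where 1.98% of all genes were called higher and 2.27% lower. At an unadjusted p under 0.05 there were 14 members (18.2%) by edgeR, 13 of them positive, and 12 by DESeq2, beside 21.6% of all genes by edgeR. The members' median interaction was 0.16 and that of all genes 0.001. A larger rise of these genes in Cisplatin-treated than in untreated cells was thus not shown for single members.

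**Figure D3:**
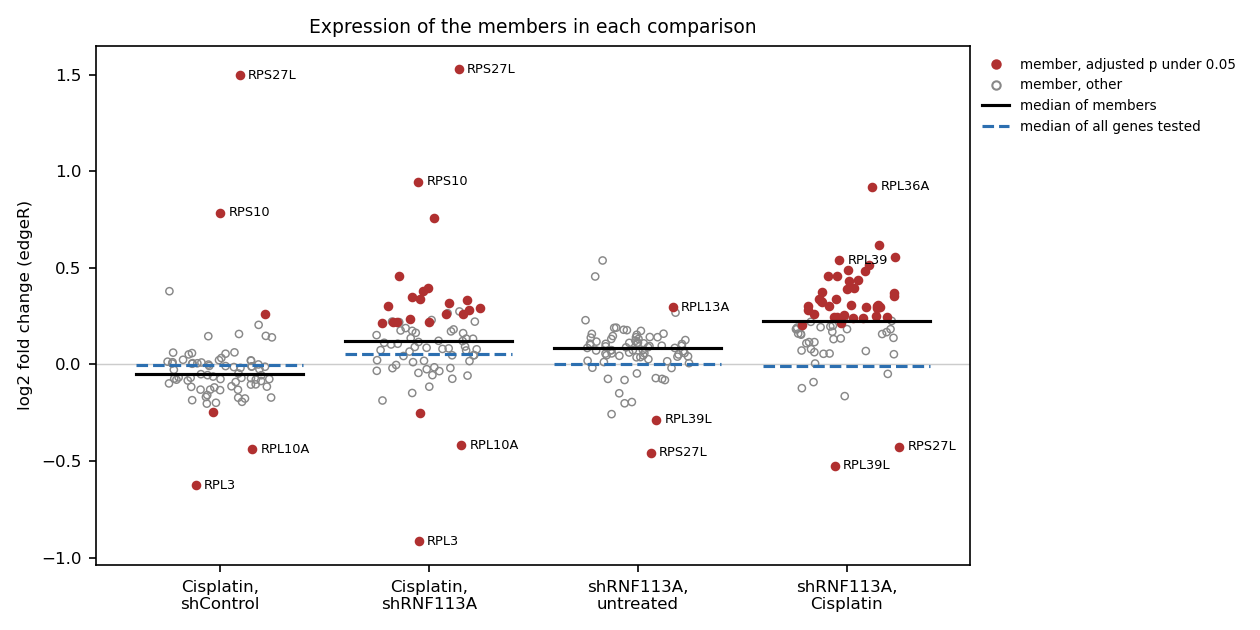
log2 fold changes of the 77 members tested in 4 comparisons, as edgeR fitted them. Filled points passed an adjusted p under 0.05, and lines are medians of the members and of 15352 genes. Members gather close to the median of all genes for Cisplatin in shControl cells and above it, at 0.23, for depletion in Cisplatin-treated cells.

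RPL39, RPL37 and RPS15, small proteins of both subunits, show the rise in Cisplatin-treated cells. RPL39 was at 232, 199 and 233 CPM in shControl and 298, 299.5 and 367 in shRNF113A cells treated with Cisplatin (0.54 ± 0.10, adjusted p = 0.0016). RPL37 was at 621, 535 and 603 in the former and 790.2, 776 and 946 in the latter (0.51 ± 0.09, adjusted p = 0.001). RPS15 was at 297, 275 and 269 in the former and 382, 359.8 and 496 in the latter (0.56 ± 0.12, adjusted p = 0.0032). In all 3 genes the groups are apart, and replicate 3 of Cisplatin-treated shRNF113A cells is the highest library. The stalk proteins, which recruit the elongation factors, all rose there, RPLP0 by 0.24 (adjusted p = 0.034), RPLP1 by 0.44 (adjusted p = 0.0055) and RPLP2 by 0.39 (adjusted p = 0.015).

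RPL39L, a paralog of RPL39 best known from testis, went the other way. It was at 25.5, 26.9 and 28.6 CPM in untreated and 29.5, 28.4 and 26.1 in Cisplatin-treated shControl cells. In shRNF113A cells it was at 21.2, 21.6 and 23.7 without and 18.7, 19.7 and 20.1 with Cisplatin. Every shRNF113A library lies below every shControl library, and the change was −0.40 ± 0.07 (adjusted p = 0.00042). RPL39L and RPS27L were the only members called lower upon depletion, and both are paralogs. The other paralogs differ: RPL36A was called higher in the sense-strand counts, RPS4X did not pass (0.13, adjusted p = 0.087), and RPL3L and RPL10L were too low.

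The counts of the following small lists stand beside 34.8% of all genes that rose and 32.1% that fell with Cisplatin, and 23.5% and 24.0% upon depletion. Of the 9 members known to bind MDM2, 2 rose with Cisplatin (RPS27L and RPS27) and none fell, and 1 rose and 1 fell upon depletion. RPL5 was at 808, 817 and 862 CPM in untreated and 804, 696 and 772 in treated shControl cells, and in shRNF113A cells at 882, 802 and 934 without and 760, 762 and 842 with Cisplatin. The shControl groups are just apart and the shRNF113A groups overlap, and its change of −0.14 ± 0.06 with Cisplatin did not pass (adjusted p = 0.0503). RPL11 changed by 0.01 ± 0.06. RPL7, a large-subunit protein often used as a reference, stayed between 1030 and 1194 CPM in all 12 libraries. Of 15 tested Diamond-Blackfan anemia genes 4 rose with Cisplatin (RPS10 among them, on part of its reads) and 5 upon depletion, with none falling. The shares that rose are thus near or below those of all genes for Cisplatin. Both subunits took part in the rise upon depletion in Cisplatin-treated cells, with 22 of 46 large-subunit and 17 of 31 small-subunit members, and so did 14 of 28 snoRNA hosts and 25 of 49 other members.

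Related gene lists are given by counts, beside the shares of all genes that rose and fell with Cisplatin (34.8% and 32.1%) and upon depletion in Cisplatin-treated cells (21.1% and 21.8%). Of 18 other mRNAs known for a TOP tract, 2 rose and 9 fell with Cisplatin (median −0.16), and 2 rose and 3 fell upon depletion in Cisplatin-treated cells (median −0.05). Of 46 ribosome biogenesis genes 30 rose and 4 fell with Cisplatin (median 0.29), and 6 rose and 5 fell upon depletion in Cisplatin-treated cells (median 0.01). Of 74 mitochondrial ribosomal protein genes 20 rose and 24 fell with Cisplatin (median 0.02), and 11 rose and 9 fell upon depletion in Cisplatin-treated cells (median −0.01), shares that lie near or below those of all genes. Of 7 ribosomal proteins that the symbol rule leaves out, 3 rose and 2 fell with Cisplatin, among them RPL22L1, the paralog of RPL22, with −0.99. No test compared these lists with the cytosolic ribosomal protein genes.

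For a few members the gene counts of STAR and the exonic counts of HTSeq disagree. The median member had 100.6% as many reads in the former, but RPL21 had 0.0%, RPS10 3.0%, RPL17 4.7%, RPL36A 5.2%, RPL13A 12.2% and RPS27A 49.6%, so their fold changes rest on part of the reads. RPS10 rose with Cisplatin in STAR counts (0.87, adjusted p = 1.6e-05) but was at −0.04 in HTSeq counts (adjusted p = 0.62). RPL36A was at 0.57 (adjusted p = 0.014) and 0.04 (adjusted p = 0.67) for the same comparison, and at 0.73 (adjusted p = 0.0057) and 0.21 (adjusted p = 0.063) upon depletion. RPL13A, the single rise upon depletion in untreated cells, was at 0.30 (adjusted p = 0.034) and 0.08 (adjusted p = 0.55). The calls of these 3 genes are therefore uncertain.

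Introns of the members were read in the same libraries as reads in the span of a gene but outside its exons. The median span of a member was 5180 bases, against 27048.5 for 19626 other genes, and 29 members hold 60 snoRNAs. Of the 82 members 73 had enough intronic and exonic reads to be tested among 10984 genes. Of the others, 5 had negative intronic counts in each library (RPL17, RPL26, RPL36A, RPS10 and RPS15A) and 4 were too low. Members held 0.30% to 12.3% as many intronic as exonic reads, median 1.87%, beside 10.4% for all genes tested, and 72 of 73 were below that median.

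Where the intronic to exonic ratio of a member was called it was nearly always higher, on a scale common to intronic and exonic reads. Summed over the members without negative intronic counts, the ratio was 1.39%, 1.01% and 1.25% in untreated shControl and 1.56%, 1.38% and 2.08% in Cisplatin-treated shControl libraries, which overlap. It was 1.90%, 1.98% and 1.83% in untreated and 2.93%, 2.89% and 2.75% in Cisplatin-treated shRNF113A libraries. Each shRNF113A group lies above the shControl group of the same treatment, and replicate 3 of Cisplatin-treated shControl cells, the deepest library, is the highest of its group. The other genes without negative intronic counts went from 4.82% to 5.31% in untreated shControl to 11.7% to 12.3% in Cisplatin-treated shRNF113A libraries. The members' ratio was 21.0% to 28.3% of that of the other genes, with 26.5% to 28.3% in untreated and 22.3% to 25.0% in Cisplatin-treated shRNF113A libraries, which do not overlap.

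Cisplatin in shControl cells raised the ratio of 20 members and lowered none, against 18.4% and 1.26% of all genes (medians 0.40 and 0.29 on the log2 scale). In shRNF113A cells it raised 48 and lowered none, against 67.0% and 0.737% (medians 0.56 and 0.76). Depletion raised 55 and lowered none in untreated cells, against 29.8% and 0.164% (medians 0.66 and 0.47), and raised 65 and lowered 1 in Cisplatin-treated cells, against 84.0% and 0.228% (medians 0.86 and 0.97). The members' median thus lay above that of all genes for Cisplatin in shControl cells and for depletion in untreated cells, and below it in the other comparisons. Members tested had a median of 491 intronic reads per library, beside 123 for all genes tested. The part of this read depth in the counts of calls was not tested.

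Part of this depends on the scale. When intronic reads were scaled by their own total, which removes what all genes share, the calls became 11 up and 1 down, 5 up and 29 down, 15 up and 1 down, and 6 up and 17 down in the same order. Of all genes 12.9% were then called up and 13.5% down, 21.8% and 22.1%, 4.97% and 3.94%, and 17.2% and 11.3%. Members then lay below the typical gene for Cisplatin in shRNF113A cells, at a median of −0.22 beside −0.03. The members' median for depletion in untreated cells was 0.22 beside 0.03. The 20 calls in shControl cells ranged from 6 to 50 when 1 library was left out. They were 6 without replicate 2 and 12 without replicate 3 of untreated shControl, 50 without replicate 2 and 12 without replicate 3 of Cisplatin-treated shControl, and 34 without both replicates 2. The 55 calls for depletion in untreated cells became 17 without replicate 2 of untreated shControl, and 31 and 15 without replicates 1 and 2 of untreated shRNF113A.

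**Figure D4:**
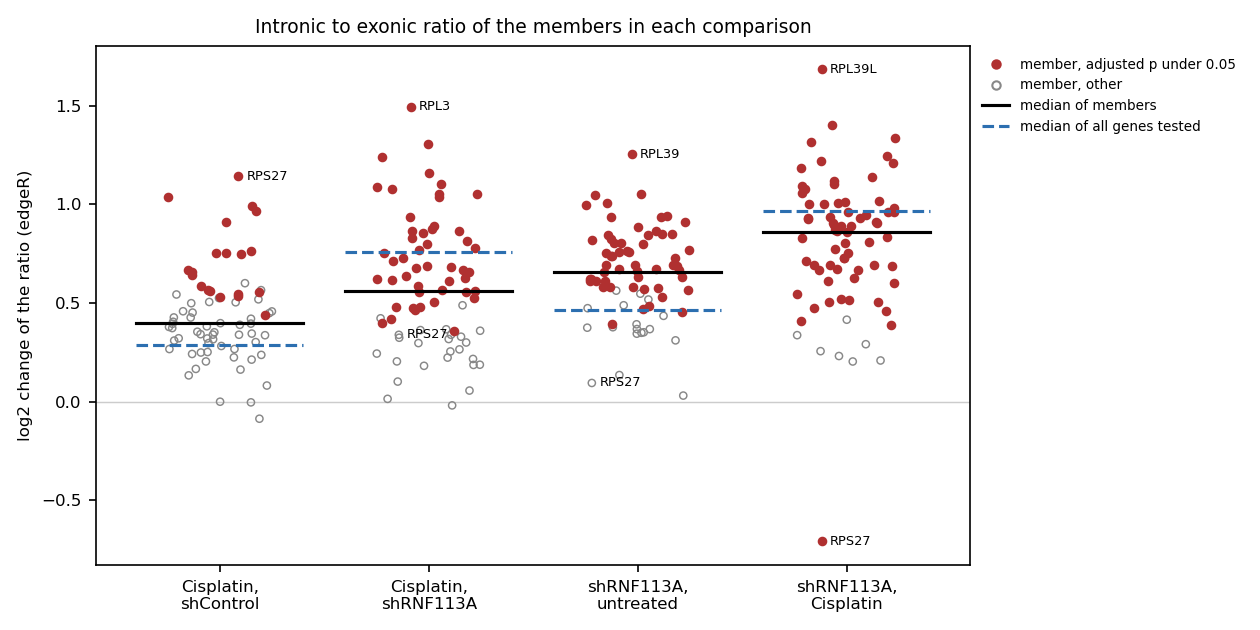
log2 changes of the intronic to exonic ratio of the 73 members tested in 4 comparisons. Filled points passed an adjusted p under 0.05, and lines are medians of the members and of 10984 genes. Nearly all members are above 0, and RPS27 stands alone below 0 for depletion in Cisplatin-treated cells, at −0.71.

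RPS27 was the exception upon depletion. Its ratio was 0.82%, 0.94% and 0.90% in untreated and 1.54%, 2.66% and 1.80% in Cisplatin-treated shControl cells (1.14 ± 0.19, adjusted p = 0.00012). In shRNF113A cells it was 0.89%, 1.06% and 0.89% without and 1.17%, 1.36% and 1.08% with Cisplatin. The treated shControl group lies above all others, so depletion in treated cells gave −0.71 ± 0.18 (adjusted p = 0.0016). With intronic reads scaled by their own total this was −1.62.

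In RPL3 and RPL10A, whose expression fell with Cisplatin, the ratio rose, and part of such a rise is the lower exonic count. The ratio of RPL3 was 1.44%, 0.83% and 1.33% in untreated and 1.86%, 1.54% and 2.66% in treated shControl cells. In depleted cells it was 1.71%, 1.88% and 1.65% without and 5.50%, 4.48% and 4.80% with Cisplatin, where the treated libraries are far above all others (1.49 ± 0.20, adjusted p = 3e-06). That of RPL10A was 2.21%, 1.71% and 2.11% in untreated and 3.70%, 4.06% and 4.19% in treated shControl cells (0.99 ± 0.16, adjusted p = 1e-04), and 3.52%, 4.10% and 3.25%, then 8.05%, 7.78% and 7.45%, in shRNF113A cells (1.10 ± 0.16, adjusted p = 5.8e-06). Neither Cisplatin comparison has overlapping libraries in RPL10A, and the Cisplatin-treated shRNF113A libraries lie above the other 9.

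The largest rise in Cisplatin-treated cells was that of RPL39L. Its ratio was 3.41%, 1.62% and 4.10% in shControl and 9.60%, 8.72% and 10.7% in shRNF113A cells (1.69 ± 0.26, adjusted p = 2e-05). RPL22 rose by 1.40 ± 0.18 and RPS29, a small-subunit zinc finger protein, by 1.34 ± 0.17 in the same comparison. RPS27L went from 2.19%, 2.34% and 2.72% in shControl to 4.96%, 5.29% and 7.11% in shRNF113A cells (1.25 ± 0.17, adjusted p = 6.4e-06). The expression of RPL39L (−0.52) and RPS27L (−0.43) fell in this comparison, so part of their rises is the lower exonic count. The level of RPL39L was low, as given above, so its ratio rests on few intronic reads. RPL41, which encodes the shortest ribosomal protein, had the highest ratio of the members, 9.45% to 14.6%, and was not called in any comparison. With intronic reads scaled by their own total it was lower for Cisplatin in shRNF113A cells (−0.77, adjusted p = 1.2e-06) and for depletion in treated cells (−0.65, adjusted p = 4.6e-05).

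The rMATS tables hold 76 distinct introns of 40 members as retained introns, 63 to 2389 bases long. In the Gencode annotation of protein-coding genes, 16 of the 76 are fully exonic in another transcript and 14 more are exonic over more than 10% of their length. Whole exons lie in 16, so reads in such introns need not be unspliced RNA. The study ran rMATS on Ensembl annotations, whose exons were not checked here. The inclusion level is the share of the unspliced form after division of the reads by the lengths of both forms. The order of the 3 libraries in a table cell is not named, so they are called a, b and c. Cisplatin in shControl cells raised the level of 3 of 72 introns tested and lowered none (0.27% of all introns rose and 0.27% fell). In shRNF113A cells it raised 19 of 74 and lowered 2 (12.3% and 2.17%). Depletion raised 35 of 74 and lowered none in untreated cells (15.9% and 0.302%), and raised 30 of 73 and lowered 1 in Cisplatin-treated cells (24.3% and 0.639%). The median log2 changes of the odds of inclusion were 0.33, 0.26, 0.68 and 0.62 for members in this order. For all introns tested they were 0.08, 0.30, 0.56 and 0.82, above the members where Cisplatin-treated shRNF113A cells take part. The part of read depth in the counts of calls was not tested. Of the called introns 1 of 3, 9 of 21, 26 of 35 and 20 of 31 hold no exonic base in the Gencode annotation. Levels were low: 2, 16, 34 and 28 of these called introns had means under 2% in both groups, and no called intron moved by 20 percentage points. The 31 calls in Cisplatin-treated cells became 14 without library a of shControl, and 13 and 16 without library a and b of shRNF113A. The 3 calls in shControl cells became 0 to 5, namely 1, 1 and 0 without untreated library a, b and c, and 1 and 5 without treated library a and c.

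Introns of RPL10A, RPS27L and RPL37A were called in all 4 comparisons. Their ends in hg19 (GRCh37) are shown 5′ to 3′ on the transcribed strand, with the first and last 2 bases of the intron in capitals. All 72 introns whose ends were read begin with GT and end with AG.
RPL10A donor, chr6:35436801-35436814, plus strand: tcagGTtggcaccg
RPL10A acceptor, chr6:35437133-35437160, plus strand: gttggtgctgtcccccaaaacgcAGgct
RPS27L donor, chr15:63447810-63447823, minus strand: gaagGTatatcatt
RPS27L acceptor, chr15:63446257-63446284, minus strand: atatactctcatgattcttttgcAGggt
RPL37A donor, chr2:217363597-217363610, plus strand: catgGTgagtgtgg
RPL37A acceptor, chr2:217363968-217363995, plus strand: tggtttctcccttcactctaaacAGgcc

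The RPL10A intron (353 bases, chr6:35436805-35437157) overlaps no exon in the Gencode annotation, but the rMATS events hold a longer exon that reaches into it. Its level was 1.27%, 1.07% and 1.20% in untreated and 2.31%, 3.10% and 2.48% in treated shControl cells. In depleted cells it was 1.97%, 2.64% and 1.79% without and 5.49%, 5.49% and 5.42% with Cisplatin. The 4 adjusted p were 0.021 and 1.6e-21 for Cisplatin in shControl and shRNF113A cells and 0.00034 and 0.00074 for depletion without and with Cisplatin. The most heavily retaining libraries are thus those with both treatments, and they differ among themselves by less than 0.1 percentage points. A longer form of the exon before it, which ends 258 bases inside the intron and shares reads with it, was called in all 4 comparisons too, with 0.68% to 0.74% in untreated shControl and 3.48% to 3.60% in Cisplatin-treated shRNF113A cells.

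In RPS27L the intron (1560 bases, chr15:63446260-63447819) was at 0.17%, 0.14% and 0.11% in untreated and 0.34%, 0.31% and 0.44% in treated shControl cells. It was at 0.29%, 0.37% and 0.29% in untreated and 0.95%, 1.00% and 1.46% in treated shRNF113A cells. Exons of other transcripts cover 41.7% of it. In RPL37A, a zinc finger protein of the large subunit, the intron (392 bases, chr2:217363601-217363992) holds 2 whole exons of other transcripts, and exons cover 46.9% of it. Its level was 0.14% to 0.22% in untreated shControl and 0.73% to 0.87% in Cisplatin-treated shRNF113A cells.

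**Figure D5:**
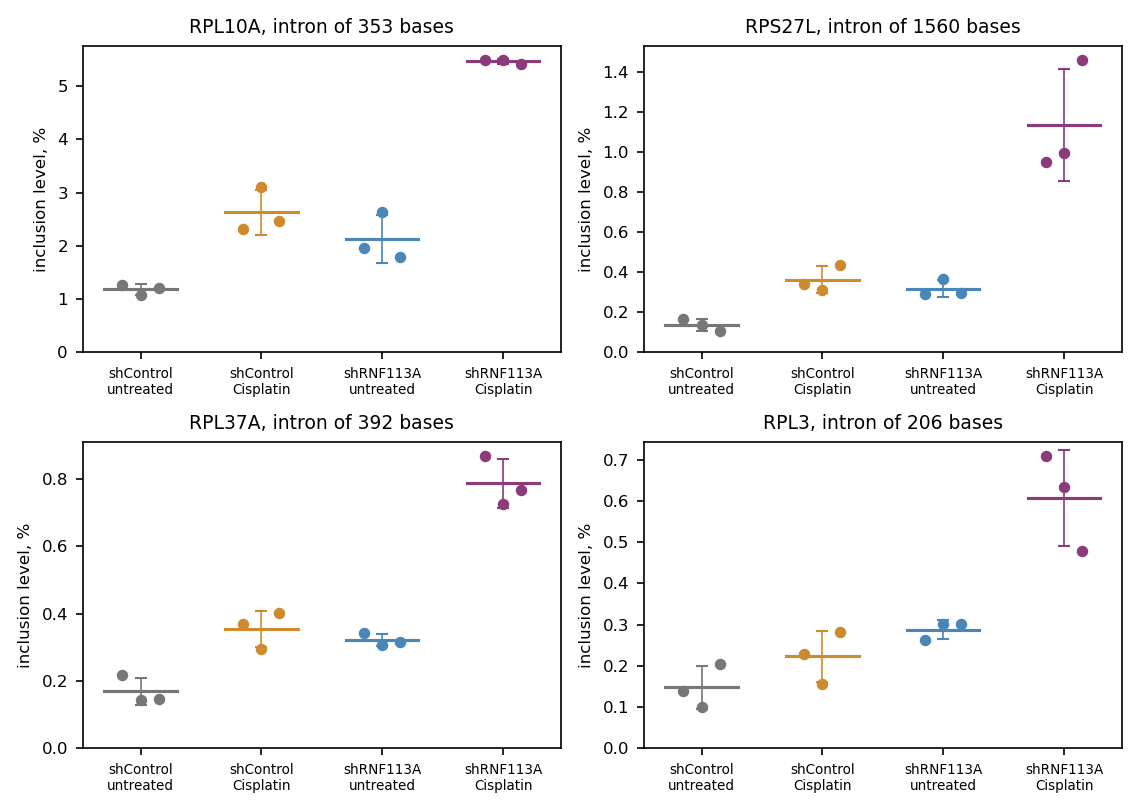
Inclusion level in percent of 4 introns in the 3 libraries of each group (a, b and c as the tables list them), with mean and SD. The intron of RPL10A reaches 5.42% to 5.49% in Cisplatin-treated shRNF113A cells and that of RPL3 0.48% to 0.71%.

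The largest called differences were in 2 introns that overlap exons. In RPL23, a large-subunit protein that binds MDM2, the interval chr17:37006468-37008856 has 3 whole exons inside it, so its skipping reads join the exons on either side. These reads numbered 6, 7 and 10 in untreated and 7, 5 and 13 in treated shControl, 9, 11 and 9 in untreated shRNF113A and 38, 34 and 68 in treated shRNF113A libraries. The level was 95.3% to 98.0% in the first 9 and 83.3%, 85.4% and 71.9% in the last 3 (adjusted p = 2.6e-11 for depletion in treated cells). In RPS9, a small-subunit protein, the interval chr19:54710593-54711265 is fully exonic in another transcript. Its level was 26.5%, 13.6% and 35.3% in shControl and 35.1%, 36.7% and 35.4% in shRNF113A cells treated with Cisplatin, groups that overlap by 1 library (adjusted p = 0.033). In shRNF113A cells the RPS9 interval was called lower with Cisplatin, with a change of −11.5 percentage points (adjusted p = 0.0034).

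Other kinds of events were called mainly in the comparisons that hold Cisplatin-treated shRNF113A cells. Skipped exons were called 7 times up and 1 time down of 337 for Cisplatin in shControl, 9 and 20 of 370 for Cisplatin in shRNF113A, 0 and 0 of 347 for depletion in untreated and 1 and 15 of 359 for depletion in treated cells. Of all skipped exons 0.211% and 0.0783%, 0.846% and 0.816%, 0.0431% and 0.0431%, and 0.163% and 0.502% were called up and down. Alternative 3′ splice sites were called 1 time up and 0 down of 50, 4 and 4 of 57, 3 and 0 of 55, and 4 and 3 of 53 in the same order, beside 0.38% and 0.12%, 1.74% and 0.545%, 0.655% and 0.0818%, and 2.09% and 0.401% of all such events. Alternative 5′ splice sites were called 4 and 2 times of 57, 5 and 3 of 60, 3 and 0 of 58, and 5 and 3 of 58, beside 0.559% and 0.441%, 2.71% and 1.31%, 0.33% and 0.0899%, and 2.33% and 0.846%. Mutually exclusive exons were called 1 and 2 times of 88, 0 and 5 of 114, 2 and 1 of 108, and 2 and 13 of 107, beside 0.681% and 0.588%, 1.12% and 1.25%, 0.25% and 0.179%, and 1.35% and 1.35%. Events of a gene can share reads, so these counts are not independent. Most members are expressed at a high level, and the part of read depth in these counts was not tested.

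RPL5 and RPL3 had the clearest changes of this kind. An exon of RPL5 (70 bases, chr1:93298946-93299015) was included at 99.5% to 99.7% in treated shControl, 99.7% to 99.8% in untreated shRNF113A and 96.5%, 97.3% and 94.2% in treated shRNF113A cells. Reads that skip it numbered 19, 22 and 17 in treated shControl and 117, 98 and 178 in treated shRNF113A libraries (adjusted p = 4e-15). In RPL3 a donor site that makes the exon 205 bases longer (chr22:39715395-39715628) was used at 0.32%, 0.28% and 0.41% in treated shControl, 0.44%, 0.32% and 0.30% in untreated shRNF113A and 2.27%, 2.05% and 5.01% in treated shRNF113A cells (adjusted p = 5.3e-24 for depletion in treated cells). In both genes the libraries with both treatments are apart from the rest, and library c is the most changed.

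In RPS9 an acceptor site upstream of the usual one, which makes the exon 845 bases longer, was called higher upon depletion. Both acceptors are shown in hg19 on the plus strand, with the last 2 bases of the intron in capitals.
RPS9 upstream acceptor, chr19:54710396-54710423: cctgctgtccctatctcctatgcAGccc
RPS9 downstream acceptor, chr19:54711241-54711268: cacctcaccttgtcgcttcttccAGggt
The tables hold this pair of acceptors with different exons before it. With the exon chr19:54710144-54710330, which carries most reads, the longer form was at 1.15%, 0.80% and 1.00% in untreated shControl and 1.75%, 1.95% and 1.53% in untreated shRNF113A cells (adjusted p = 0.0016). With Cisplatin it was at 1.26%, 1.66% and 1.70% in shControl and 2.75%, 2.70% and 2.09% in shRNF113A cells (adjusted p = 0.012). With an exon further upstream only 23 to 59 reads per library joined the downstream acceptor, and the same longer form was at 45.4% to 54.6% in untreated shControl and 69.8% to 76.2% in untreated shRNF113A cells (adjusted p = 6.9e-05). Both events share their reads inside the longer exon. The groups are apart in each of these comparisons, while the expression of RPS9 was not called in any comparison. The longer exon also holds the whole interval chr19:54710593-54711265, given above as a retained intron, so that event shares reads with the longer form.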

How the data were processed

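RNA of 12 libraries (TruSeq stranded mRNA, NextSeq) was analysed from deposited files. The authors removed ribosomal, transfer and mitochondrial reads, trimmed and aligned to hg19 with STAR 2.5.2b (version per the submitters' processing notes). They deposited raw counts per gene: STAR counts, and HTSeq counts on exons and on gene spans of Gencode protein-coding genes. Their rMATS tables hold raw inclusion and skipping counts per library. The p-values and level differences of their own tests there were not used. Expression used edgeR 4.0.16 (R 4.3.3), sense-strand counts, TMM, filterByExpr with a minimum of 10, and the quasi-likelihood test. Drug and depletion came from the additive model, and other effects from the model with their interaction. Intronic against exonic counts (gene minus exon counts) and inclusion against skipping counts were tested with a term per library, at a mean of at least 10 reads. SE is the change divided by the square root of F. Alternatives are listed below, with DESeq2 1.42.0 among them. Scripts were tested on simulated data.

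Members, lists and named genes were chosen with earlier results of these data known. The text names, per comparison, the 5 largest called rises and falls of expression (5 and 3 for the ratio, 5 for introns), with exceptions for genes of known interest. Deviations of equally numbered shControl libraries correlated across 9779 genes (r = 0.63, 0.73 and 0.48), so these were also paired. In shRNF113A cells r was 0.40, −0.06 and 0.30. Some items are not reported here.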

Additional observations from a re-analysis of the deposited data

How the results depend on the processing

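Counts of called members moved by over 1.5 times under some settings. With library size scaling they were 31 for Cisplatin (11 with TMM), 42 for Cisplatin in shRNF113A cells (23) and 7 for depletion in untreated cells (3). HTSeq exon counts, chosen after seeing the data, gave 15 for Cisplatin in shRNF113A cells, and there RPS10 turned to −0.043 for Cisplatin and −0.16 for Cisplatin in shControl cells. A 2-fold limit left 1 member for Cisplatin, over all or in either cell type, and 0 for depletion, over all or at either treatment. The replicate block gave 5 for depletion in untreated cells and moved no other count past 1.5 times, except in the 6 shControl libraries alone (8 with and 5 without it). With own-total scaling the intronic ratio was called in 12 members for Cisplatin in shControl (20), 16 for depletion in untreated (55) and 23 for depletion in treated cells (66). Level differences of at least 0.2 left 0 introns in each comparison, and of at least 0.1 left 0, 2, 0 and 2. Leaving out the replicates 2 of both shControl groups, also chosen later, gave 22 for Cisplatin, 8 for depletion in untreated cells, 1 for the interaction and, for the ratio, 34 for Cisplatin in shControl cells. Leaving out libraries, that pair included, gave ranges of 9 to 22 for Cisplatin, 19 to 41 for depletion, 0 to 1 for the interaction, 5 to 8 and 12 to 32 for Cisplatin in shControl and shRNF113A cells, and 0 to 8 and 15 to 44 for depletion in untreated and treated cells. For the ratio the ranges were 6 to 50, 35 to 57, 15 to 67 and 60 to 70, and for introns 0 to 5, 14 to 28, 25 to 37 and 13 to 42, each in the order Cisplatin in shControl and shRNF113A, depletion in untreated and treated cells. Of values for single named genes 1102 kept direction and call, 45 kept direction only and 2 reversed. The cause was not tested. The authors' own FDR for introns was not run, as their tests were not used. No paired analysis was possible for splicing events because the order of libraries is unnamed. Values at 0 or near it in introns of low level rest on few reads, and depth limits them.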
